A study of Mus musculus with 15 samples.

Results

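The heart runs mainly on fatty acids. CD36 and the fatty acid transport protein FATP1 (Slc27a1) help them across the cell membrane, the binding protein FABP3 carries them in the cytosol, and acyl-CoA synthetases activate them. Carnitine palmitoyltransferases and the carnitine-acylcarnitine translocase (Slc25a20) then bring the acyl groups into mitochondria, where the 4 reactions of the beta-oxidation spiral remove acetyl-CoA and pass electrons to the respiratory chain through the flavoproteins Etfa and Etfb and the dehydrogenase Etfdh. Malonyl-CoA, made in heart by Acacb and removed by Mlycd, inhibits entry, and the nuclear receptors PPAR-alpha, PPAR-delta and ERR-alpha switch the genes of the pathway on.

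The set described here holds 34 genes of this pathway, of 18531 genes that the arrays' accessions could be matched to. The 34 were chosen by name and not by their values, though with earlier results of these data known. All 34 were on the array, with 43 probes, and each gene is given by its brightest probe. They were 7 genes of uptake and activation, 6 of the carnitine shuttle, 10 of the beta-oxidation spiral, 3 of unsaturated or peroxisomal steps, 3 of electron transfer, 2 of malonyl-CoA turnover and 3 transcriptional regulators.

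RNA came from heart tissue of 15 C57BL/6 mice, aged 8 to 10 weeks at the start and injected intraperitoneally every week for 5 months. The dose of methamphetamine hydrochloride (meth) went up by 2 mg each week, reaching 40 mg/kg after 20 weeks, and controls received sterile phosphate-buffered saline (PBS). There were 4 meth males and 4 PBS males (2 of each from each of 2 trials), 4 meth females and 3 PBS females. Each mouse had 1 Agilent array of 1 colour, and the arrays lay on 4 slides: slides 1 and 2 held trial 1 males with females, slide 3 the trial 2 males, and slide 4 held 2 meth females and 1 PBS female. The sample titles place these 3 females in trial 1, while their source names say trial 2. Signals are given as log2 values relative to the 75th percentile of their own array, so that a value of 1 stands for 2 times that percentile. Between 61.4% and 71.4% of probes were well above background on each array, and the 75th percentile itself lay between 323 and 424 on slides 1 to 3 and between 460 and 618 on slide 4. Levels of different genes are not compared, since probes differ in brightness.

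All 9 cardiomyocyte markers were well above background in every group. Markers of other tissues moved with the groups. White fat markers summed to between 19.0 and 61.4 times the 75th percentile in PBS males, 34.9 to 179 in meth males, 28.0 to 35.7 in PBS females and 67.3 to 102 in meth females, and all 6 were higher with meth in both sexes. Secretory airway markers summed to at most 0.596 in PBS males and at least 38.9 in meth males, and of the 5 liver markers found Alb, Apoa1, Ttr and Fgb were not well above background in either male group. Of 10 clock genes that peak opposite to Arntl, all 10 were higher with meth in both sexes, and 9 passed the threshold in the mean response. What part these tissues or the clock have in the results below was not tested. In bulk RNA, fewer cells of a type and less RNA per cell cannot be told apart.

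PPAR-alpha and ERR-alpha bind half-sites with the letters AGGTCA, so the promoters of the genes were searched for them. Promoter sequence (RefSeq, GRCm38.p6, 250 bases before to 50 after a start) was matched for 29 of the 34 genes, without Cpt1b, Crat, Acaa2, Acat1 and Decr1. AGGTCA on either strand lay in the window of 6 genes, namely Cd36, Cpt1a, Acadvl, Acadm, Echs1 and Acacb. That is 20.7% of the 29, while 18.1% of all genes in the table and 16.3% of all 32851 promoters hold it. The half-site of ERR-alpha with 1 more base, AAGGTCA, which contains AGGTCA, lay in Acadm and Acacb (5.38% of all genes and 4.72% of all promoters). The full TCAAGGTCA (0.423% of promoters) and the PPAR-type repeat, 2 copies of AGGTCA in one direction with any 1 base between them (0.0396% of promoters), were in none of these windows. GGGCGG, the core bound by Sp1, lay in 22 of the 29, or 75.9%, against 38.2% of all genes and 35.7% of all promoters. The stretches of the fatty acid translocase, the carnitine gatekeeper found in most tissues and the medium-chain dehydrogenase are shown because these genes, which stand for uptake, entry and the spiral, hold the half-site and are given by array below. They read 5′ to 3′ on the strand of the gene, with the half-site in capitals, here as its reverse complement.
Cd36, chr5:17836092-17836146, minus strand: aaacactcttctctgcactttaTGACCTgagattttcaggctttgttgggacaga
Cpt1a, chr19:3323180-3323239, plus strand: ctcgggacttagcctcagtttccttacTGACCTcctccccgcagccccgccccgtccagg
Acadm, chr3:153944860-153944893, minus strand: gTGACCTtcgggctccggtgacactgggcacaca
The half-site began 228 bases before the start of Cd36, 94 before that of Cpt1a and 249 before that of Acadm, at the edge of the window. A match describes letters only and says nothing of binding in these hearts.

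The first question was whether meth changed the pathway in male hearts. Most of its genes were slightly lower after meth, but no gene passed the threshold. Of the 34 genes, 29 had a negative log2 difference (meth minus PBS), including all 10 of the beta-oxidation spiral and all 3 of electron transfer, beside 58.0% of all 28367 probes tested. The median over the 34 was -0.20 on the log2 scale (1.15-fold lower), while that over all probes was -0.03. By limma with Benjamini-Hochberg adjustment over all probes, 0 of 34 were called and 1.11% of all probes were. At an unadjusted p under 0.05, 9 genes passed (12.8% of all probes), of which Slc25a20, Acadvl, Hadhb, Acaa2, Eci1, Decr1, Etfa and Esrra were lower (6.73% of all probes) and Cpt1a was higher (6.10%). The lowest adjusted p was 0.219. Leaving out Ppard, the fitted differences lay between -0.29 and 0.28 and their standard errors between 0.08 and 0.19. The 95% intervals ran no further than -0.64 and 0.55, so that larger changes lie outside them.

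Among the genes of uptake, Cd36 measured 5.43, 5.35, 5.41 and 5.29 in PBS males and 5.31, 5.40, 4.79 and 5.20 in meth males (trial 1 replicates 1 and 2, then trial 2 replicates 1 and 2). Its lowest value by far belonged to meth male 1 of trial 2, the other arrays overlapped, and the fitted difference was -0.20 ± 0.10 (SE; adjusted p = 0.453 by limma). Slc27a1 went the other way, with 2.48, 2.63, 2.51 and 2.52 in PBS males and 2.59, 2.93, 2.46 and 2.72 in meth males, a difference of 0.14 ± 0.12 (SE; adjusted p = 0.667 by limma) with groups that overlapped. Across the 7 genes of uptake and activation, 4 were lower and 3 (Slc27a1, Acsl4 and Acsl5) higher, with a median of -0.11.

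The 2 isoforms of the carnitine palmitoyltransferase that controls entry into mitochondria did not move alike. Cpt1a, the isoform of liver and most other tissues, measured 0.95, 1.01, 1.16 and 1.12 in PBS males and 1.41, 1.47, 1.19 and 1.28 in meth males. All 4 meth males lay above all 4 PBS males, which held for 4.68% of probes, and the meth mean was higher on each of the 3 slides that hold males. The fitted difference was 0.28 ± 0.12 (SE), a 1.21-fold difference, with an adjusted p of 0.370 by limma. The second, dimmer probe of Cpt1a gave 0.17. Cpt1b, the isoform of muscle, measured 5.79, 5.72, 5.82 and 5.98 in PBS males and 5.70, 5.69, 5.54 and 5.85 in meth males, with a difference of -0.13 ± 0.15 (SE; adjusted p = 0.779 by limma). Slc25a20, the translocase, was at 3.12, 3.04, 2.99 and 2.94 in PBS males and 2.73, 2.97, 2.57 and 2.77 in meth males. Only meth male 2 of trial 1 reached into the PBS range, and the fitted difference was -0.26 ± 0.10 (SE; adjusted p = 0.266 by limma).

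In the spiral, Acadm, the medium-chain acyl-CoA dehydrogenase, measured 7.77, 7.80, 7.73 and 7.66 in PBS males and 7.60, 7.77, 7.31 and 7.60 in meth males, and its difference was -0.17 ± 0.12 (SE; adjusted p = 0.597 by limma). Hadha, the alpha subunit of the trifunctional protein for long chains, was at 4.25, 4.16, 4.12 and 3.93 in PBS males and 4.00, 4.15, 3.58 and 3.92 in meth males (-0.20 ± 0.19, SE; adjusted p = 0.707 by limma). Both genes overlapped between the groups, and in both meth male 1 of trial 2 was the lowest of the 8. The 10 genes of the spiral had differences between -0.28 and -0.10.

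The most negative differences, leaving out Ppard, were those of Etfa, Mlycd and Eci1, close to the -0.28 of Acaa2 in the spiral. Acacb (-0.05), grouped with Mlycd, and Ehhadh (0.03), grouped with Eci1, differed little. Etfa, a subunit of the electron transfer flavoprotein, measured 6.48, 6.23, 6.17 and 6.21 in PBS males and 5.86, 6.19, 5.80 and 6.07 in meth males. The difference was -0.29 ± 0.11 (SE; adjusted p = 0.270 by limma), with meth male 2 of trial 1 inside the PBS range. Mlycd, malonyl-CoA decarboxylase, was at 5.86, 5.82, 5.77 and 5.80 in PBS males and 5.69, 5.79, 5.12 and 5.49 in meth males (-0.29 ± 0.16, SE; adjusted p = 0.506 by limma). The PBS males lay close together and the meth males were spread wide. Eci1, the isomerase that moves double bonds, measured 6.83, 6.86, 6.54 and 6.59 in PBS males and 6.55, 6.58, 6.16 and 6.38 in meth males (-0.29 ± 0.10, SE; adjusted p = 0.260 by limma). Trial 2 males were lower than trial 1 males in both groups, and within each slide the difference was between -0.29 and -0.27.

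Of the regulators, Ppara had 2.38, 2.29, 2.64 and 2.60 in PBS males and 2.20, 2.32, 2.37 and 2.54 in meth males, overlapping, with a difference of -0.12 ± 0.13 (SE; adjusted p = 0.774 by limma). Ppard was well above background on 3 of the 15 arrays, all on slide 4, and on no male array, so no fold is given for it. It stays in the counts and medians of the 34 genes throughout, where its sign rests largely on signals not well above background. Esrra, which encodes ERR-alpha, was among 4 genes, with Crat, Acat1 and Etfdh, whose 4 meth males all lay below the 4 PBS males, which held for 5.17% of probes. For each of these, and for Cpt1a, the exact two-sided permutation p was 0.0286, the smallest that 4 against 4 allow and not adjusted for the 34 genes.

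**Figure D1:**
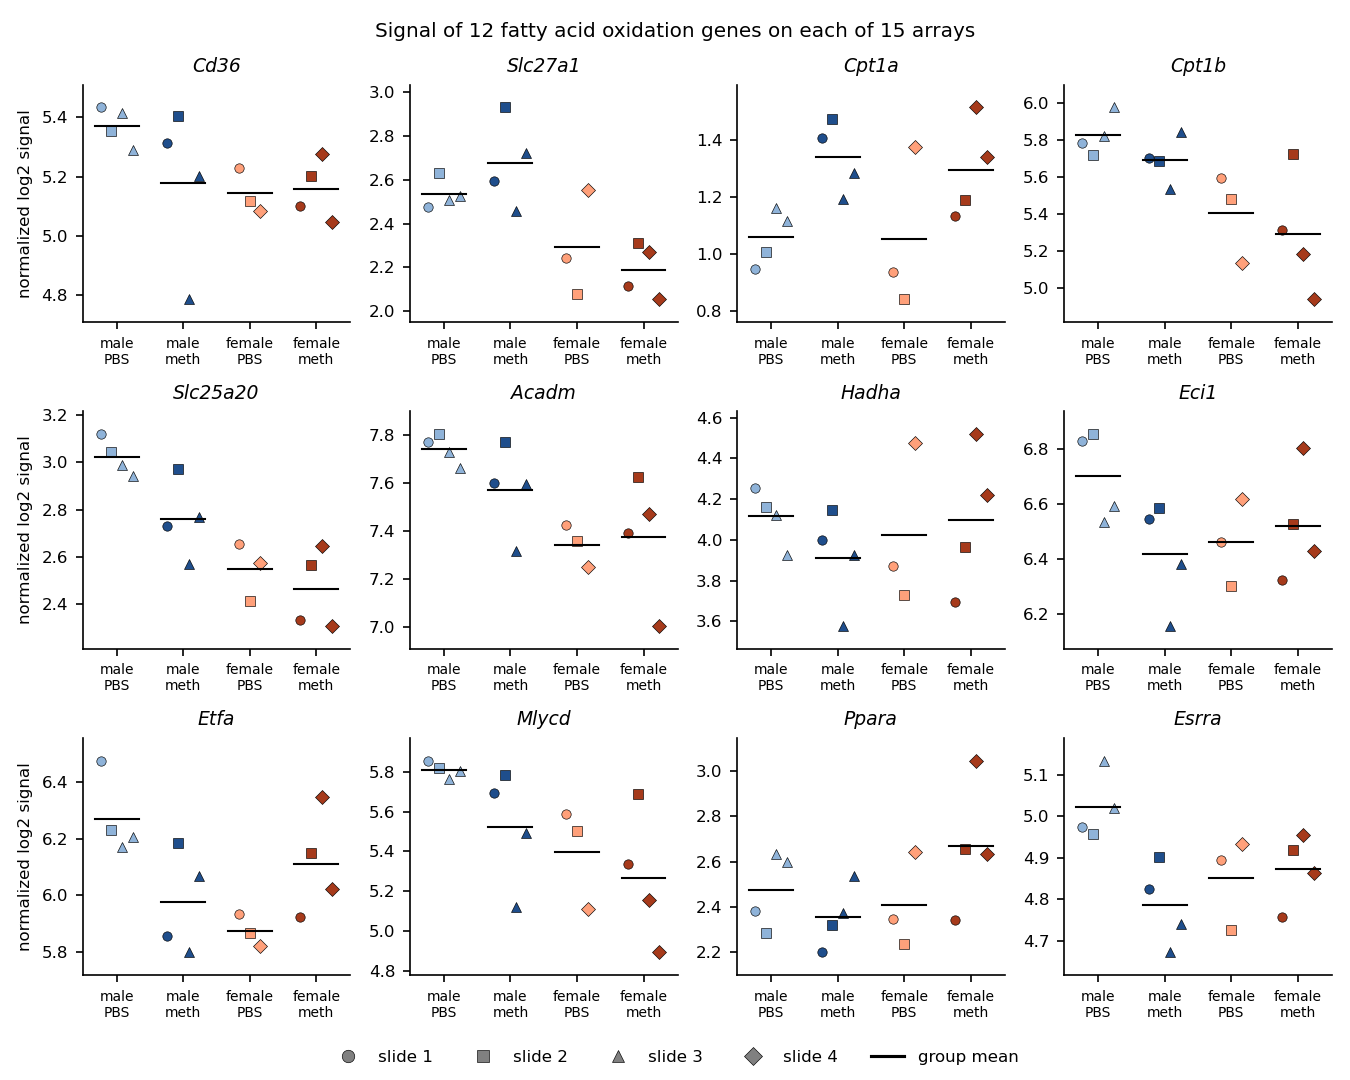
Signal of 12 of the genes on each array, as log2 of the signal relative to the array's 75th percentile (vertical axis, a separate range for each gene), by group (horizontal axis); marker shapes give the slide and the line is the group mean. In Slc25a20 all 4 PBS males lie above the other 11 arrays except meth male 2 of trial 1, in Cpt1a the meth males lie above the PBS males, and in Hadha the 3 slide 4 arrays lie above the other females.

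The differences in males were uneven over arrays. Within slides the median over the 34 genes was -0.16 on slide 1 (31 genes lower), -0.02 on slide 2 (20 lower) and -0.27 on slide 3 (30 lower). Of all probes, 56.4%, 53.7% and 57.0% were lower on these slides, so that the count on slide 2 was near that share. On all 3 slides 19 genes were lower while Cpt1a and Slc27a1 were higher, counts not made over all probes. By trial the median over the 34 genes was -0.10 in trial 1 and -0.27 in trial 2. No gene had a called difference between the trials, but 0 of all 28367 probes had one either. Without meth male 1 of trial 2 the male median became -0.11. The signal of other bright genes moved as well: 1517 other probes with a mean log2 signal over 4, a level that 21 of the 34 genes also exceeded, deviated from their means by -0.13 on the array of meth male 1 of trial 2 and by 0.11 on that of PBS male 1 of trial 1. The 34 genes deviated there by -0.23 and 0.23. Over the 4 PBS males the median deviation of the 34 genes was 0.13 to 0.23 and that of the bright probes -0.03 to 0.11. With quantile normalization, which equalises the bright range, the male median was -0.12. Cardiomyocyte markers were lower in 8 of 9 cases in males, with a median of -0.10. The part of these shifts in the male differences was not tested.

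**Figure D2:**
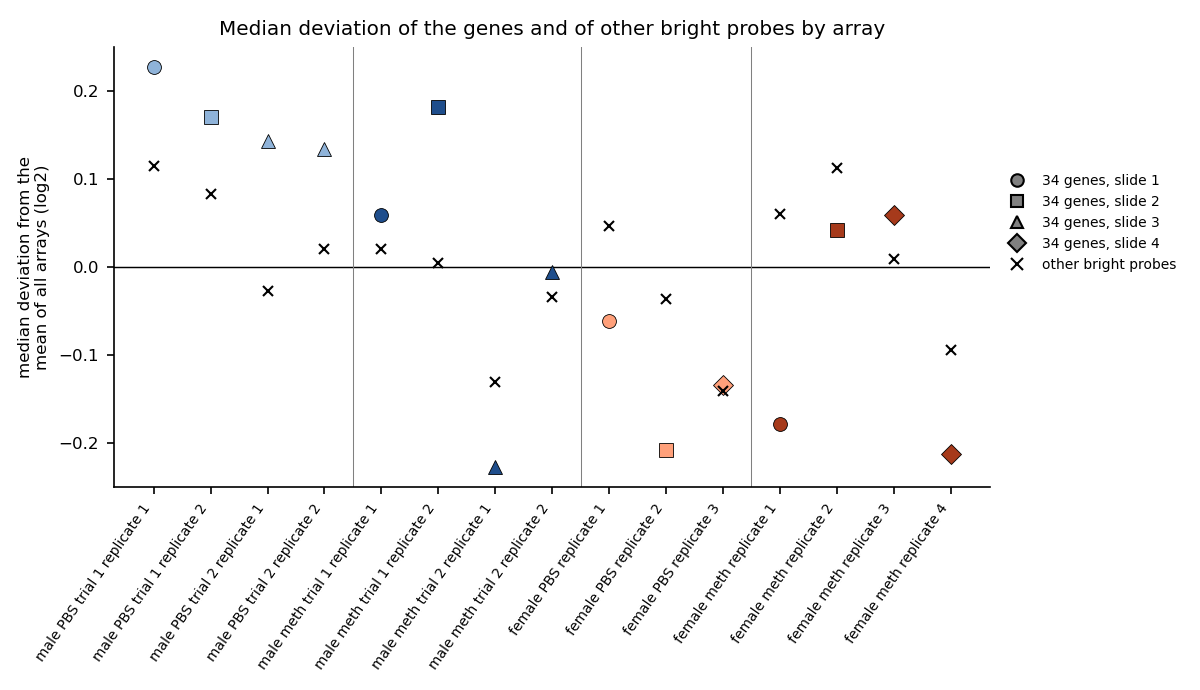
Median deviation from the mean of all 15 arrays (vertical axis, log2) of the 34 genes (coloured markers, shape by slide) and of 1517 other bright probes (crosses), for each array (horizontal axis, grouped as PBS males, meth males, PBS females, meth females). The 34 genes lie at 0.13 to 0.23 in the 4 PBS males and at -0.21 to -0.06 in the 3 PBS females.

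In female hearts the differences over all arrays were small and had no common direction. Of the 34 genes, 21 were higher and 13 lower with meth, beside 50.2% and 49.8% of all probes, and their median was 0.03 beside 0.00 for all probes. None was called (0.758% of all probes) and none reached an unadjusted p under 0.05 (11.0% of all probes). Leaving out Ppard, the fitted differences lay between -0.13 and 0.26 and the 95% intervals between -0.52 and 0.57. The 10 genes of the spiral were all positive, by 0.01 to 0.23. Single slides ran in opposite ways, with 1 array of each female group on slides 1 and 2. On slide 1 the median of the 34 genes was -0.13 (29 lower, beside 51.9% of all probes). On slide 2 it was 0.23 (31 higher, beside 51.6%) and on slide 4 it was 0.02 (19 higher, beside 45.4%). All 10 spiral genes were lower with meth on slide 1 and higher on slide 2. With quantile normalization the median of the 34 was -0.05, and with normexp background correction -0.02, so that its sign was not stable, and without meth female 2 or meth female 3 there were 17 higher and 17 lower.

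The largest female differences above background were those of Ppara, Cpt1a and Etfa. Ppara, the main fatty acid sensor among the regulators, measured 2.35, 2.24 and 2.64 in PBS females and 2.34, 2.66, 3.05 and 2.63 in meth females (0.26 ± 0.14, SE; adjusted p = 0.554 by limma). Cpt1a was at 0.94, 0.84 and 1.38 in PBS females and 1.13, 1.19, 1.51 and 1.34 in meth females, a difference of 0.24 ± 0.13 (SE; adjusted p = 0.568 by limma). In both genes the PBS female on slide 4 (replicate 3) was the highest of its group and reached into the meth range. Etfa measured 5.94, 5.87 and 5.82 in PBS females and 5.92, 6.15, 6.35 and 6.02 in meth females (0.24 ± 0.12, SE; adjusted p = 0.493 by limma), with only meth female 1 inside the PBS range.

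The other genes given by array overlapped between the female groups. Cd36 measured 5.23, 5.12 and 5.08 in PBS females and 5.10, 5.20, 5.28 and 5.05 in meth females. Acadm measured 7.42, 7.36 and 7.25 in PBS females and 7.39, 7.63, 7.47 and 7.00 in meth females. Eci1 measured 6.46, 6.30 and 6.62 in PBS females and 6.32, 6.53, 6.80 and 6.43 in meth females. In each of these 3 genes the meth females were spread over a wider range than the PBS females. Slide 4 (PBS female 3 and meth females 3 and 4) stood apart in some genes and in both directions. Hadha was at 3.87 and 3.73 in PBS females 1 and 2 and 4.47 in PBS female 3, and at 3.69 and 3.96 in meth females 1 and 2 and 4.52 and 4.22 in meth females 3 and 4. Cpt1b was lower there, with 5.60 and 5.48 against 5.13 in PBS females and 5.31 and 5.72 against 5.18 and 4.94 in meth females. Mlycd was lower there too, with 5.59 and 5.50 against 5.11 in PBS females and 5.34 and 5.69 against 5.16 and 4.89 in meth females. Slide 4 is also the set of females whose trial the labels disagree on, so slide, scan and trial cannot be told apart among females.

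Ppard is given here only where it was measured. It stood at -4.21 in PBS female 3 and at -4.60 and -4.35 in meth females 3 and 4. With 2 meth females and 1 PBS female no comparison is made.

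**Figure D3:**
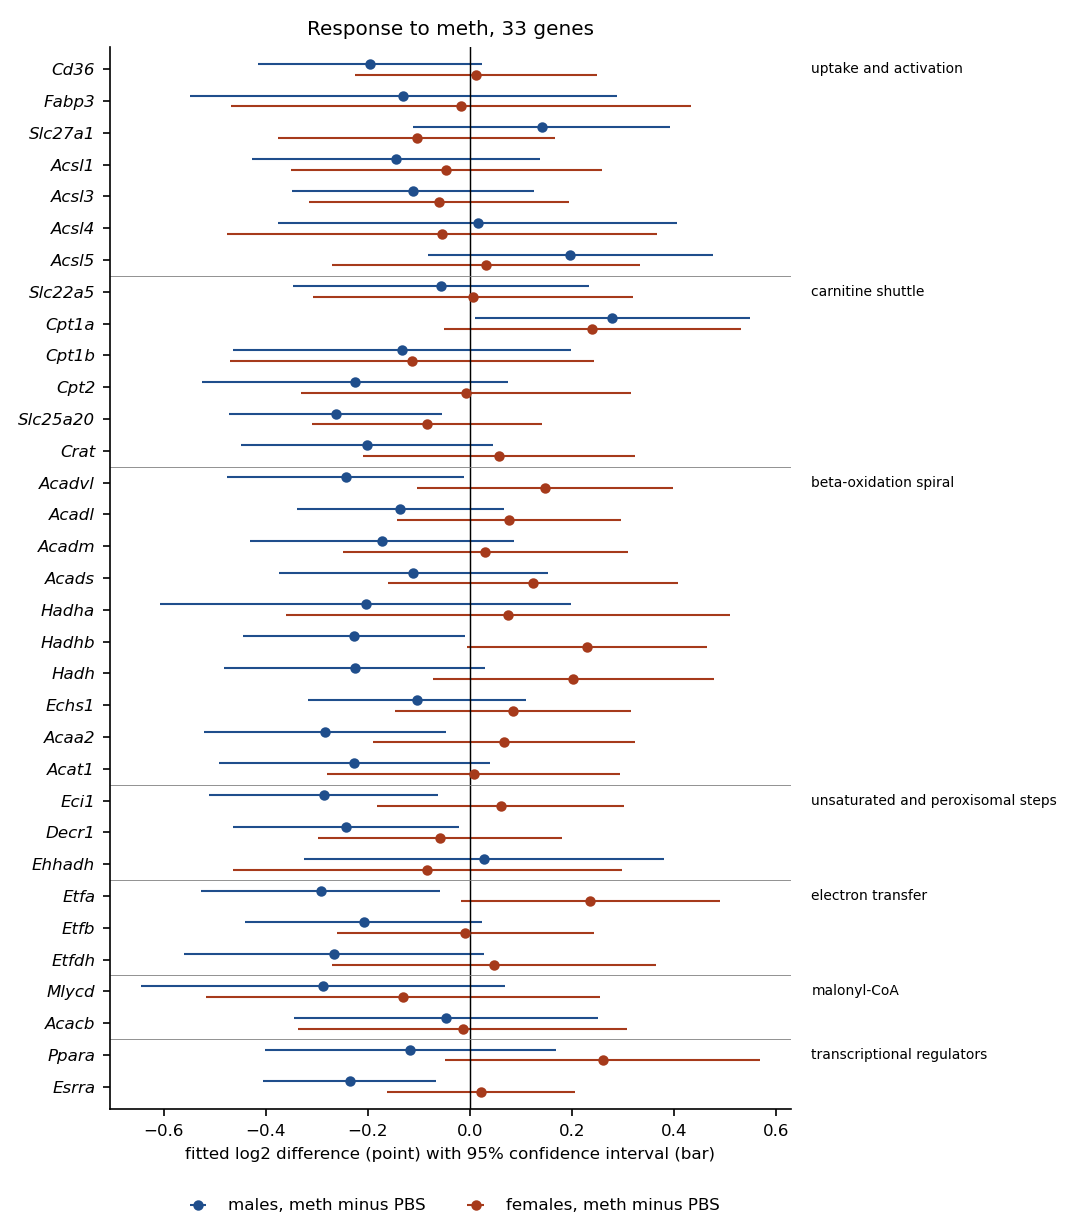
Fitted log2 difference, meth minus PBS (horizontal axis), for 33 of the genes (vertical axis, ordered by role), in males and females; points are estimates from limma and bars 95% confidence intervals, and Ppard, below background in males, is left out. In males the points run from -0.29 to 0.28 with all 10 spiral genes below 0, and in females from -0.13 to 0.26 with all 10 above 0.

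The design also asks whether the sexes responded differently. The difference of the 2 responses (male minus female) was negative for 29 of 34 genes, beside 52.7% of all probes, with a median of -0.21 beside -0.02. It was called for 0 of 34 genes and 0.137% of probes, and 7 genes had an unadjusted p under 0.05 (8.66% of probes), namely Acadvl, Hadhb, Hadh, Acaa2, Eci1, Etfa and Esrra, all negative (3.93% of probes). With quantile normalization the median was -0.08, with 25 genes negative and 2 at an unadjusted p under 0.05, and without meth male 1 of trial 2 it was -0.13, with 26 negative and 2 at that p. The largest above background were Etfa (-0.53 ± 0.16, SE; adjusted p = 0.403 by limma) and Hadhb, the beta subunit of the trifunctional protein (-0.46 ± 0.15, SE; adjusted p = 0.439 by limma). Of the 9 further probes of 8 of the genes, only 4 had the sign of the brightest probe in this contrast. Within slide 1 the meth response had a median of -0.16 in males and -0.13 in females, and within slide 2 -0.02 and 0.23. A different response of the sexes was therefore not shown for any gene of the pathway. Over both sexes together, 28 genes were lower and 6 higher with meth (55.3% of all probes were lower), 0 were called (2.64% of probes) and the median was -0.07. Without meth male 1 of trial 2 it was -0.03, with 22 lower and 12 higher, without meth female 4 it was -0.04 (24 lower) and without PBS female 1 -0.05 (23 lower). At an unadjusted p under 0.05 there were 2 (15.3% of probes), Cpt1a and Slc25a20.

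In that mean response Cpt1a was higher by 0.26 ± 0.09 (SE; adjusted p = 0.178 by limma). Within each sex its meth mean was above its PBS mean on every slide that held that sex, by 0.05 to 0.46. Slc25a20 was at -0.17 ± 0.07 (SE; adjusted p = 0.253 by limma) and Mlycd at -0.21 ± 0.12 (SE; adjusted p = 0.473 by limma). Slc25a20 in females measured 2.66, 2.42 and 2.58 with PBS and 2.33, 2.57, 2.65 and 2.31 with meth, groups that overlapped. Without PBS female 3 the value of Cpt1a became 0.34 with an adjusted p of 0.0443 by limma, so that this array decides on which side of the threshold it falls.

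The clearest pattern lay between the sexes in the PBS hearts, where the pathway was higher in males across nearly all of its genes, although no gene passed the threshold. Of the 34 genes, 31 were higher in PBS males than in PBS females, beside 45.1% of all probes, with a median of 0.36 (1.29-fold higher) beside -0.03 over all probes. The exceptions were Acsl5, Ppara and Ppard. In 21 genes all 4 PBS males lay above all 3 PBS females, which held for 6.83% of probes, and in no gene did they lie below (7.89% of probes). At an unadjusted p under 0.05 there were 19 genes, all higher in males (6.41% of probes), among them 9 of the 10 of the spiral and all 3 of electron transfer. After adjustment 0 of 34 were called (0.462% of probes), the lowest adjusted p being 0.0624. With 4 against 3 arrays an exact two-sided permutation test cannot go below 0.0571, the value that each of the 21 genes reached.

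Slc25a20 had the lowest p. Its 4 PBS males, at 2.94 to 3.12, lay above the 3 PBS females, at 2.42 to 2.66, and the fitted difference was 0.55 ± 0.11 (SE; 1.46-fold; adjusted p = 0.0624 by limma). Fitted differences take the male trials into account and can depart from a difference of group means. The call was gained in 2 alternatives, with an adjusted p of 0.0475 when arrays were scaled to their median and 0.0389 with slide as a random block. Etfdh, Cpt2 and Acaa2, picked for the size of their differences after these were seen, were higher by 0.58 ± 0.16, 0.54 ± 0.16 and 0.54 ± 0.13 (SE). Etfdh carries electrons to ubiquinone, Cpt2 rebuilds acyl-CoA inside mitochondria and Acaa2 is a thiolase of the spiral. Etfdh measured 6.79, 6.68, 6.77 and 6.68 in PBS males and 6.51, 6.16 and 6.03 in PBS females, with no overlap. Acadm was higher by 0.48 ± 0.14, Etfa by 0.46 ± 0.13, Mlycd by 0.53 ± 0.20, Cpt1b by 0.39 ± 0.18 and Cd36 by 0.33 ± 0.12 (SE), with adjusted p-values of 0.139 to 0.334 by limma. In each of these the 4 PBS males, listed above, lay over the 3 PBS females. Of the regulators, Esrra had a group mean of 5.02 ± 0.08 in PBS males (SD, n = 4) and 4.85 ± 0.11 in PBS females (SD, n = 3), with no overlap, and a fitted difference of 0.18 ± 0.09 (SE; adjusted p = 0.378 by limma). Ppara overlapped, with 2.47 ± 0.17 and 2.41 ± 0.21 (SD, same n), and so did Cpt1a of the carnitine shuttle, with 1.06 ± 0.10 and 1.05 ± 0.28.

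Both sexes shared slides 1 and 2, where the comparison could be made within a slide. PBS male 1 was above PBS female 1 in 33 of 34 genes (49.2% of all probes), with a median of 0.26. PBS male 2 was above PBS female 2 in 32 of 34 (47.6% of all probes), with a median of 0.36. On both slides 31 genes were higher in the male, a count not made over all probes. From these slides alone, an alternative chosen after seeing the data, the fitted median was 0.32. Leaving out any 1 array kept it between 0.33 and 0.41, and quantile normalization gave 0.25. Dimmer probes gave smaller differences: of the 9 further probes of 8 of the genes, 8 had the sign of the brightest probe and 8 a smaller difference. Cpt1b had 0.39 by its brightest probe and 0.10 by the other, and Slc22a5, the carnitine transporter, had 0.24 and -0.11. The other bright probes deviated by -0.03 to 0.11 in PBS males and by -0.14 to 0.05 in PBS females, while the 34 genes deviated by 0.13 to 0.23 and by -0.21 to -0.06. Cardiomyocyte markers were higher in PBS males in 8 of 9 cases, with a median of 0.16, and 2 of 4 liver markers tested, Alb and Fgb, passed the threshold as lower in males, where neither was well above background. Other marker lists were higher in PBS males without a called gene: all 4 brown fat markers (median 1.68), 5 of 6 of white fat (0.75), all 5 of atrium (0.61) and all 10 clock genes opposite to Arntl (0.30). Brown fat, which is itself rich in enzymes of fatty acid oxidation, had marker sums of 29.3 to 73.1 times the 75th percentile in PBS males and 24.1 to 36.2 in PBS females, and atrium 817 to 1131 and 581 to 745. The part of these tissues and of the clock in the sex difference was not tested.

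**Figure D4:**
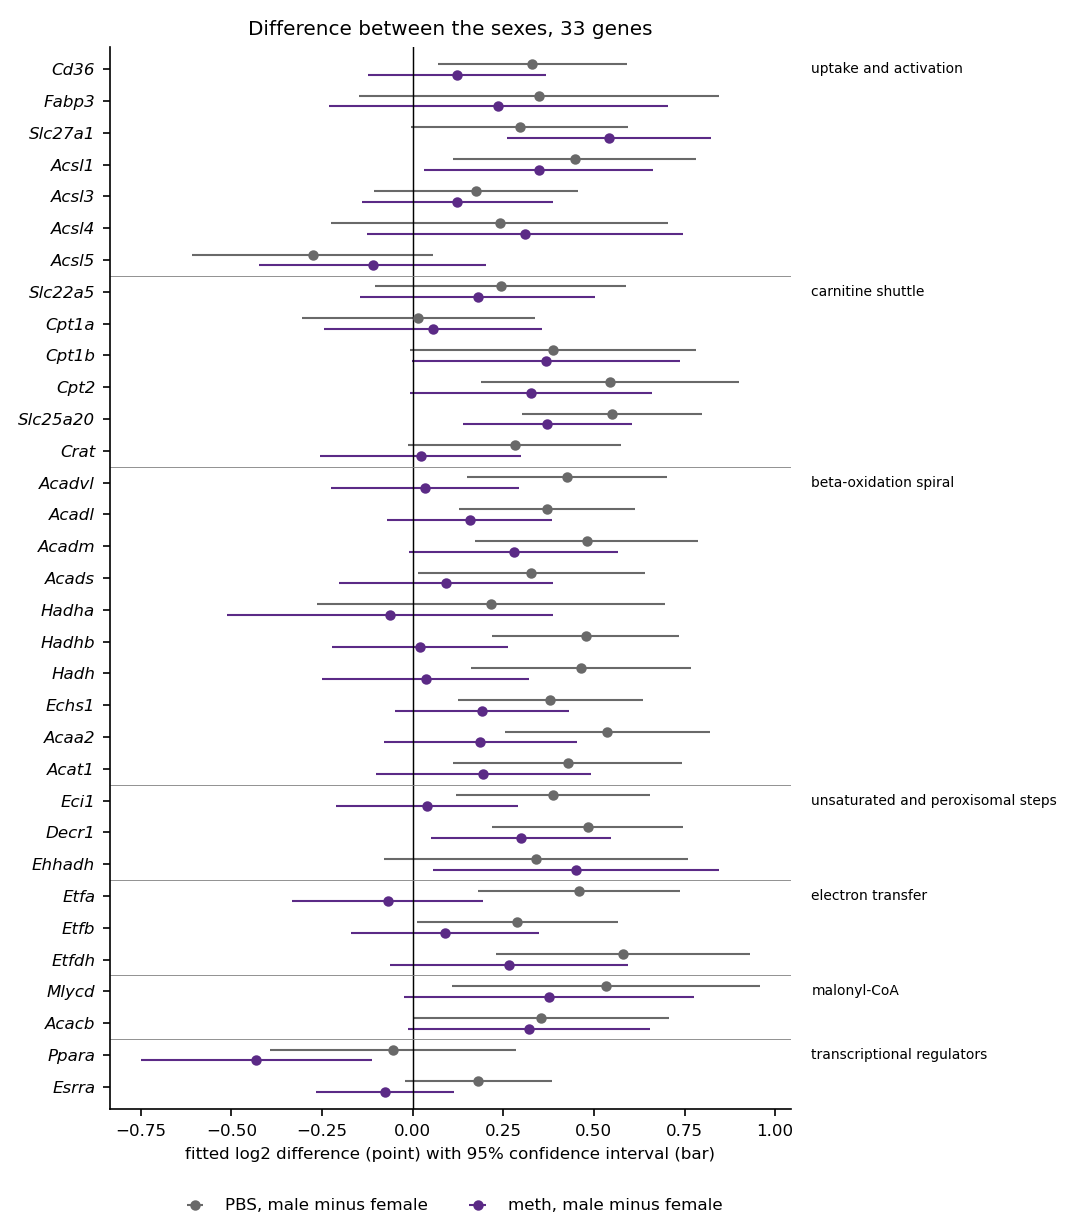
Fitted log2 difference, male minus female (horizontal axis), for 33 of the genes (vertical axis, ordered by role), in PBS hearts and in meth hearts; points are estimates from limma and bars 95% confidence intervals. In PBS hearts all 10 spiral genes lie above 0, between 0.22 and 0.54, and in meth hearts the same 10 lie between -0.06 and 0.28.

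In meth hearts the differences between the sexes had a median of 0.17, beside -0.03 over all probes. Of the 34 genes, 28 were higher in males (44.8% of all probes), and 7 had an unadjusted p under 0.05 (18.5% of probes). Ppard is among these 7, although it was well above background on no male array. Without a trial term, or with the trials of the source names, 21 were higher and 13 lower and the median was 0.07. It was 0.08 without meth male 2 of trial 1 (23 higher), 0.10 without meth female 4 (27 higher) and 0.09 with slide as a random block (26 higher). Only 1 gene was called, beside 2.62% of all probes: Slc27a1, which measured 2.59, 2.93, 2.46 and 2.72 in meth males and 2.11, 2.31, 2.27 and 2.05 in meth females. No meth male overlapped with a meth female, which held for no other gene of the set (4.36% of probes), and the fitted difference was 0.54 ± 0.13 (SE; 1.45-fold; adjusted p = 0.0487 by limma). In PBS females it was at 2.24, 2.08 and 2.55, the last on slide 4. Its call is near the threshold: of 29 alternatives it was kept in 13 and lost in 16, with an adjusted p between 0.0218 and 0.258 and a difference between 0.42 and 0.69. Of the 15 arrays, it was kept when meth female 2, PBS female 2, PBS female 3 or meth male 1 of trial 2 was left out and lost when any of the other 11 was, with the smallest value (0.42, adjusted p = 0.258 by limma) without meth male 2 of trial 1, its highest array. Slc25a20 had 0.37 ± 0.11 (SE; adjusted p = 0.0927 by limma). Ppara was the other way, at -0.43 ± 0.15 (SE; adjusted p = 0.146 by limma), with meth males at 2.20 to 2.54 and meth females at 2.34 to 3.05. That the sex difference was smaller in meth than in PBS hearts is the same contrast as the difference of the meth responses above, which was called for no gene.

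The wider lipid network was described in the same way. Of 59 further genes in 6 lists (peroxisomal oxidation, triglyceride supply, thioesterases and uncoupling, ketone bodies, fuel switch and coactivators, and other acyl-CoA enzymes), 57 were found and tested. None passed in any of the 4 contrasts on meth, in which 0.137% to 2.64% of all probes did. In males 38 were lower and 19 higher with meth (median -0.08), beside 58.0% of all probes lower and a median of -0.03. In females 22 were lower and 35 higher (median 0.04), beside 49.8% and 50.2% of all probes. In PBS hearts 51 of 57 were higher in males, beside 45.1% of all probes, with a median of 0.24. Of the 57, 17, or 29.8%, had an unadjusted p under 0.05 in either direction, beside 15.2% of all probes.

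Acot1, a cytosolic thioesterase and a PPAR-alpha target, had the lowest adjusted p of the 57 in the mean response, at -0.58 ± 0.16 (SE; adjusted p = 0.0807 by limma). Its group means were 3.28 ± 0.10 in PBS males and 2.54 ± 0.61 in meth males (SD, n = 4 each), and 2.67 ± 0.17 in PBS females (SD, n = 3) and 2.25 ± 0.13 in meth females (SD, n = 4). It was also 0.76 ± 0.26 (SE; adjusted p = 0.206 by limma) higher in PBS males than in PBS females. Acot2, its mitochondrial relative, had a mean response of -0.25. The lipid droplet proteins Plin5 and Plin2 had -0.32 and 0.21, and the ketone-using Oxct1 -0.06. The coactivator Ppargc1b had -0.16 and Acaca, a maker of malonyl-CoA, 0.57 by its brightest probe and between -0.17 and 0.28 by its 3 others, while Pex11a and Abcd3 of the peroxisome had -0.17 and -0.14, and Echdc2 and Acad10 -0.09 and -0.13. G0s2, an inhibitor of lipolysis, was 0.46 ± 0.10 higher with meth in females (SE; adjusted p = 0.0691 by limma). It was the only one of the 57 called between meth males and meth females, beside 2.62% of all probes. Its difference was -0.50 ± 0.11 (SE; adjusted p = 0.0316 by limma), and that call was lost in 13 of 29 alternatives. At an unadjusted p under 0.05 there were 15 of the 57, or 26.3%, beside 18.5% of all probes.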

How the data were processed

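Total RNA from each heart was labelled with Cy3 and hybridised to an Agilent 4x44K mouse array. The authors deposited scanner intensity values, extracted with Feature Extraction (version 9.1 in the submitters' notes), and a table of log2 values normalised by the authors, used as an alternative. Background flags came with the deposited intensity files. From the processed signal, outlier spots were left out, spots of a probe averaged, and the log2 signal centred on the 75th percentile of each array. Tests covered the 28367 of 41174 probes that at least 3 of the 15 arrays flagged as well above background. Accessions named 27188 probes through RefSeq. Groups came from sample titles.

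The 4 groups and the trial were fitted over all arrays with limma 3.58.1 (R 4.3.3), two-sided, with Benjamini-Hochberg adjustment and a threshold of 0.05. The genes and lists were chosen with earlier results of these data known. One item of the lists is not reported here. Genes shown by array were those called, the 4 largest in the male, female and mean contrasts, and 6 fixed ones, and Etfdh, chosen after its values were seen. Same-numbered meth and PBS arrays shared a slide, and their deviations correlated (0.257 to 0.664). Another same-sex PBS array correlated better for meth male 2 of trial 1, meth male 1 of trial 2 and meth females 1 and 2. Whether the numbers pair the arrays beyond the shared slide was not tested. Each animal is 1 array, whose number limits the precision. The code was checked on simulated data. The alternatives concerned background correction, scaling, filters, trial, slide, pairing and arrays left out.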

Additional observations from a re-analysis of the deposited data

Results flagged for a closer look

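Among the 34 genes, each with 3 groups of 4 arrays, 4 of 102 groups (3.92%) had an array far from the other 3 by Dixon's test, a share that chance alone gives at about 1 in 20. Fabp3 was low in PBS male 1 of trial 2, at 9.65 with the nearest array at 9.85. Acsl3 was high in PBS male 2 of trial 1, at -1.56 beside -1.77, and low in meth female 4, at -1.98 beside -1.80. Acadl was high in PBS male 1 of trial 1, at 5.59 beside 5.44. No gene of the set was called in the difference between the meth responses of the sexes.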

How the results depend on the processing

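In males, females and the difference of their responses, 0 of the 34 genes passed under every alternative run, including the methods' t-test with Benjamini-Hochberg adjustment. With that adjustment the t-test called 18 of 28339 probes unpaired in males. It called 0 probes paired in males and 0 in both forms in females, where 0 genes therefore says nothing of the pathway. At an unadjusted p under 0.05 that t-test gave 5 genes (paired, 15.2% of all probes) and 7 (unpaired, 13.3%) in males. In females it gave 0 in both forms (paired 9.94% and unpaired 8.29% of all probes). In the mean response 1 gene, Cpt1a, passed without PBS female 3 (0 to 1 over arrays left out). In PBS hearts 1 gene, Slc25a20, passed with the median shift and 1 with slide as a random block. In meth hearts 0 genes passed with normexp background correction, median shift, no filter, trial 1 alone or slides 1 and 2 alone (chosen after seeing the data), and 0 to 1 over arrays left out. The medians of the 34 genes moved by less than the spread between arrays (SD 0.123) in every alternative: -0.27 to -0.10 in males, -0.05 to 0.10 in females, -0.31 to -0.08 for the difference, -0.09 to -0.03 for the mean, 0.25 to 0.48 in PBS and 0.07 to 0.23 in meth hearts, the lowest of the last being that without a trial term or with the trials of the source names. Pairing the arrays by a replicate block left 0 genes past the threshold in the 4 contrasts on meth, with medians of -0.20, 0.08, -0.25 and -0.04, and called 157, 101, 0 and 571 probes in all. That block joins arrays of 1 sex only and gives no value between the sexes. Slide as a block, which joins both sexes on slides 1 and 2, gave medians of 0.37 in PBS and 0.15 in meth hearts. Over all probes the calls depended on the setting, with 0 to 692 in males (314 as reported), 2 to 476 in females (215), 2 to 1375 for the mean (750), 0 to 82 for the difference (39), 21 to 252 in PBS hearts (131) and 58 to 1788 in meth hearts (744). Of 6148 values of the 34 genes under alternatives, 351 changed sign, and 0 of these were past the threshold. Among values printed, Oxct1 turned to 0.00319 with the replicate block and without meth female 4 and to 0.024 on slides 1 and 2 alone (-0.12 to 0.00319 over arrays left out), Acad10 to 0.00928 with the block and without meth female 4 (-0.20 to 0.00928 over arrays left out), and Abcd3 to 0.034 on slides 1 and 2 alone; none passed in either fit, and the cause was not tested. G0s2 passed in females in 3 of 31 alternatives and Acot1 in the mean response in 2 of 30. With 3 or 4 arrays a group and standard errors up to 0.23 above background, differences of the sizes printed for single genes are near the limit of what the arrays can show.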
